A study of Mus musculus with 21 samples.

Results

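Inflammasomes are protein platforms that assemble in the cytosol of myeloid cells when a sensor detects microbial products, foreign DNA or damage. Many sensors recruit the adaptor ASC, the product of Pycard, and through it caspase-1. This protease matures the cytokines IL-1β and IL-18 and cuts gasdermin D so that its freed end forms pores in the plasma membrane. The lytic cell death that follows is called pyroptosis. In the injured brain, microglia and the monocytes and neutrophils that enter from the blood are the cells best known to carry this machinery. Much of its control lies in protein assembly and cleavage, which RNA levels do not show.

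The genes described here were the 8 members of this machinery chosen by symbol: the sensors Nlrp3, Nlrc4, Aim2 and Nlrp1b, the adaptor Pycard, the caspases Casp1 and Casp4, and the pore-forming substrate Gsdmd. All 8 were found among the 45706 gene identifiers of the series, and all 8 passed the filter of at least 5 counts over all libraries that left 23815 genes to be tested. The RNA-seq libraries numbered 21, in 7 groups of 3, and each library came from sorted cells of 2 brains pooled at random. All mice were males of 17 to 24 weeks on the C57BL/6 background. WT mice and Fgg γ390–396A mice, which carry a mutant fibrinogen γ chain without the binding motif for the leukocyte integrin CD11b-CD18, received a controlled cortical impact (CCI), a model of traumatic brain injury. Microglia, sorted as CD45low CD11b+ cells, came from both genotypes at 1 d and 7 d post-CCI. Infiltrating myeloid cells, sorted as CD45hi CD11b+ cells, came from both genotypes at 1 d post-CCI only. Sham controls were WT mice that had the craniotomy without the impact, and they gave microglia only. No day after surgery was given for the sham libraries, which served as the baseline at both 1 d and 7 d. No sham group of Fgg γ390–396A mice was analysed here, so the injury comparisons of both genotypes used the same 3 sham libraries. The mutation is carried in the germline and so by every cell of the mutant mice.

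On the mouse genome GRCm38 the 8 genes lie on 6 chromosomes, and all are protein-coding in the GENCODE M21 annotation. Nlrp3 (ENSMUSG00000032691) spans chr11:59541568-59566956 on the plus strand and Nlrp1b (ENSMUSG00000070390) spans chr11:71153102-71230733 on the minus strand. Nlrc4 (ENSMUSG00000039193) spans chr17:74425438-74459142 on the minus strand. Aim2 (ENSMUSG00000037860) spans chr1:173350879-173466040 on the plus strand. Pycard (ENSMUSG00000030793) spans chr7:127989708-127993867 on the minus strand, and Gsdmd (ENSMUSG00000022575) spans chr15:75862327-75867408 on the plus strand. Casp1 (ENSMUSG00000025888, chr9:5298517-5307265) and Casp4 (ENSMUSG00000033538, chr9:5308828-5336783) are neighbours on the plus strand of chromosome 9.

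The 3 sensors that passed the test between cell types were Nlrp3, Nlrc4 and Aim2, and the bases just upstream of their transcription starts are shown for that reason. PU.1 is a transcription factor of the myeloid lineage, and its core motif GAGGAAG, read on either strand, is in capitals. The sequences are RefSeq's, on GRCm38.p6, written 5′ to 3′ on the strand of the gene, and annotated exon bases were left off. For that reason the Aim2 and Nlrc4 sequences stop 33 and 34 bases before the RefSeq start. The RefSeq start of Aim2 lies inside the GENCODE span given above, downstream of its first base.

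Nlrp3, chr11:59542436-59542685, plus strand, upstream of its downstream start: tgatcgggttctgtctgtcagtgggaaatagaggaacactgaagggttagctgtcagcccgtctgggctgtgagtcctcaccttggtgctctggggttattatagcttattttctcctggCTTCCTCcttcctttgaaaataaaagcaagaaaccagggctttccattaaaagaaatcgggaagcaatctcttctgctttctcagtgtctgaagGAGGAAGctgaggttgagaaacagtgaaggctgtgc

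Aim2, chr1:173420354-173420570, plus strand: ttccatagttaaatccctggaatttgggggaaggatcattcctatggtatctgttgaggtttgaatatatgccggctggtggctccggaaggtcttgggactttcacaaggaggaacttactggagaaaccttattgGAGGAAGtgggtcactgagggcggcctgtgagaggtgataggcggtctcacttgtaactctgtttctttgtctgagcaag

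Nlrc4, chr17:74459143-74459358, minus strand: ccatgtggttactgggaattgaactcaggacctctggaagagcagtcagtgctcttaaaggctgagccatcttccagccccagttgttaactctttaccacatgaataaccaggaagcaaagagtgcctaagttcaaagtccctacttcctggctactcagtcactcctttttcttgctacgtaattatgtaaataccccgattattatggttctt

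RefSeq windows of 250 bases before a start were held for 7 of the 8 members, 10 windows in all, and Gsdmd had none in the table. The core GAGGAAG was in 4 of the 10 windows (40%), those of Nlrp3, Aim2, Pycard and Nlrp1b, against 10.6% of all 32851 windows of that length. Nlrp3 held it at both 130 and 36 bases before its downstream start, while the window before its upstream start held none. Nlrp1b also had another window without it. Aim2 held it at 113 bases before its start. The Nlrc4 window held none. Motifs for the stimulus-driven factors IRF (GAAA, any 2 bases, GAAA) and AP-1 (TGANTCA) were in 0 of the 10 member windows, against 2.98% and 6.75% of all windows. A match describes letters in a window and is not a binding site.

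Total counts per library lay between 18896957 and 51875767, with a median of 27001646. The transcript of the mutant gene, Fgg, had 0 counts in all 12 libraries of WT mice and sham controls, and 12, 20 and 1 counts over the 3 libraries of Fgg γ390–396A microglia at 1 d, microglia at 7 d and myeloid cells, and since the mutation leaves the transcript in place these counts do not check the labels. The sort was visible in cell type markers: the summed level of 8 microglial markers was 2755 to 12097 CPM (counts per 1000000 counts of a library, its total scaled with TMM factors) in microglia and 333 to 952 CPM in myeloid cells, and that of 8 monocyte markers was 7.52 to 149 CPM against 1838 to 2255 CPM. Neutrophil markers, 10 in all, summed to 105 to 870 CPM in microglia and to 2774 to 13216 CPM in myeloid cells. The myeloid libraries thus held marker RNA of both infiltrating types. They also held that of border macrophages, whose 6 markers summed to 1165 to 2027 CPM there and to 4.56 to 233 CPM in microglia. Of these 6, 2 in WT and 3 in Fgg γ390–396A mice were called higher in myeloid cells than in microglia at 1 d. In bulk libraries such as these, fewer cells of a type and less RNA per cell cannot be told apart. The monocyte receptor Ccr2 alone, chosen after its values were seen, was at 27.8, 1.99 and 5.27 CPM in WT and 27.7, 1.41 and 2.65 CPM in Fgg γ390–396A microglia at 1 d, and thus highest in replicate 1 of each. The sums of all 8 monocyte markers were 144, 149 and 84.5 CPM and 100.2, 33.3 and 38.1 CPM in these libraries, so by the whole list replicate 1 was not apart from replicate 2 in WT mice.

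Every member was detected in every group, at levels that differed by orders of magnitude. The authors' counts have gene length divided out, so CPM can be compared between genes. Aim2 and Pycard were the most abundant, with group means of 45.2 to 141 CPM and 59.6 to 103 CPM. Casp4, Gsdmd, Casp1 and Nlrp3 had group means between 8.29 and 38.4 CPM, Nlrp1b between 2.06 and 10.4 CPM, and Nlrc4 between 0.133 and 2.18 CPM. Among all genes tested, Aim2 ranked at the 93.1 to 98.5 percentile of a group and Nlrc4 at the 31.2 to 60.3 percentile. The ratio of the highest to the lowest group mean was 16.4 for Nlrc4, 5.07 for Nlrp1b, 3.13 for Aim2 and 3.11 for Nlrp3, and 1.69 to 1.85 for the adaptor, the caspases and Gsdmd.

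**Figure D1:**
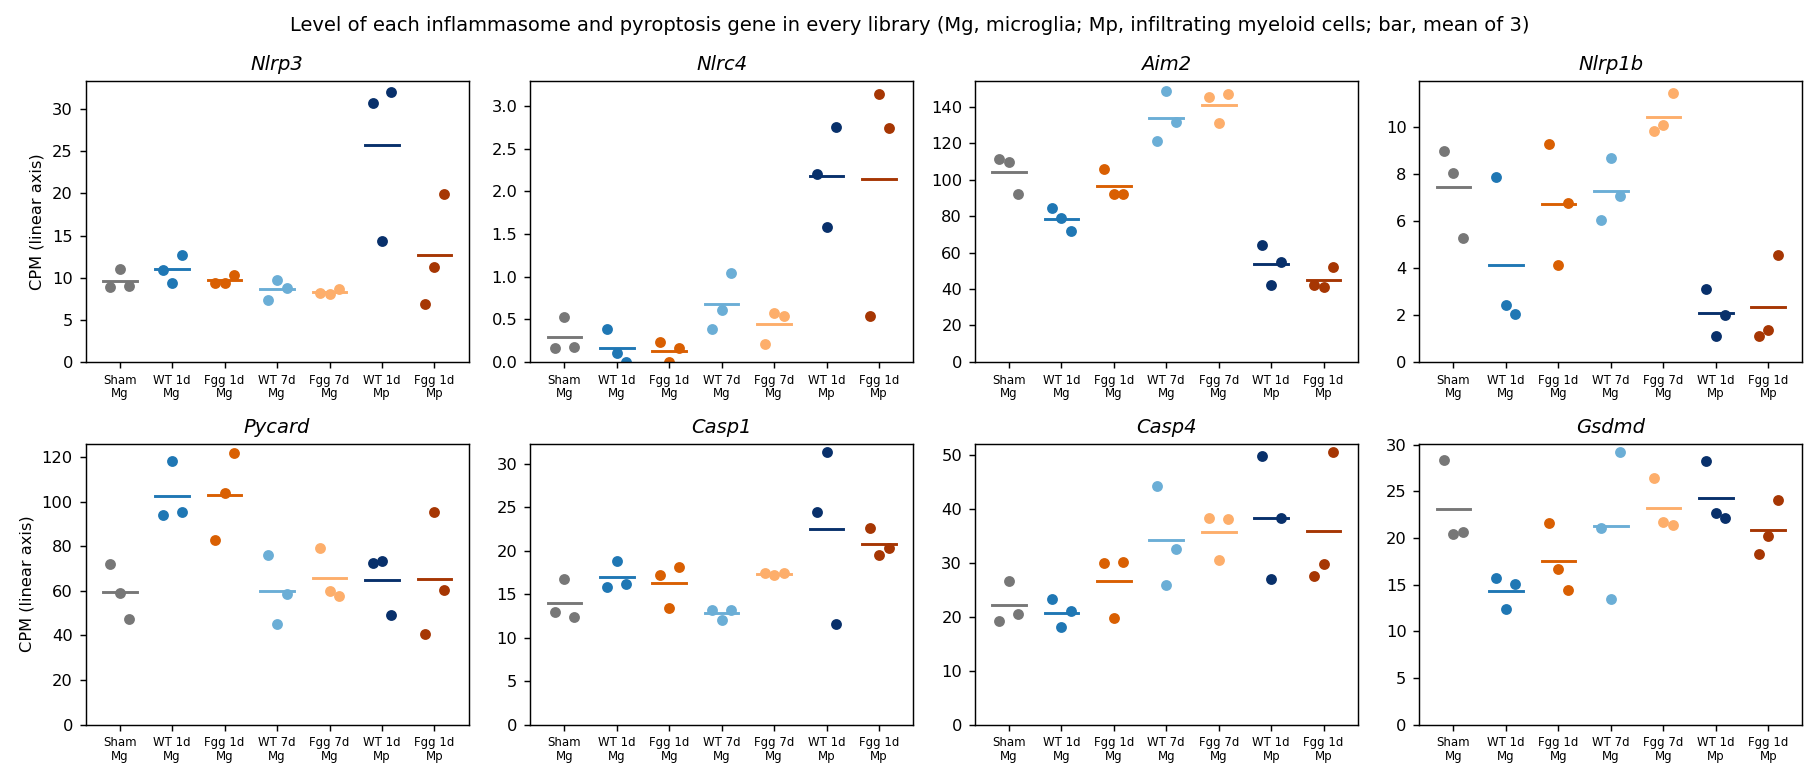
Level of each of the 8 genes in CPM (vertical axis, linear, 1 panel per gene) in the 7 groups (horizontal axis); points are the 3 libraries of a group and bars their mean. By group means, Nlrp3 is highest in WT myeloid cells and Nlrc4 is highest, at about the same level, in myeloid cells of both genotypes. Aim2 is highest in microglia at 7 d and lowest in myeloid cells, and Pycard is highest in microglia at 1 d.

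Nlrp3 senses potassium efflux, particles and membrane damage. Its level was 8.89, 11.0 and 8.97 CPM in sham microglia, 10.9, 9.41 and 12.7 CPM in WT microglia at 1 d and 9.35, 9.34 and 10.3 CPM in Fgg γ390–396A microglia at 1 d. At 7 d it was 7.41, 9.71 and 8.77 CPM in WT and 8.19, 8.04 and 8.64 CPM in Fgg γ390–396A microglia. The 15 microglia libraries thus lay between 7.41 and 12.7 CPM. Myeloid cells held 30.8, 14.4 and 32.1 CPM in WT mice, all above every microglia library, and 6.87, 11.3 and 19.9 CPM in Fgg γ390–396A mice, which overlapped both microglia and WT myeloid cells. In the order of the 7 group means, no 2 neighbours were free of overlap.

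Nlrc4 forms an inflammasome with the NAIP proteins, which bind bacterial flagellin and secretion needles. It was near the detection floor in microglia, with 5, 14 and 7 counts in the sham libraries, 10, 3 and 0 counts in WT and 16, 0 and 4 counts in Fgg γ390–396A microglia at 1 d. With 3 counts taken as the floor of a library with 0 counts, the floor is 0.117 CPM in WT replicate 3 and 0.0755 CPM in Fgg γ390–396A replicate 2. These floors are approximate, since the counts have gene length divided out and are not reads. At 7 d the level was 0.382, 0.610 and 1.04 CPM in WT and 0.205, 0.574 and 0.538 CPM in Fgg γ390–396A microglia. Myeloid cells held 2.20, 1.58 and 2.75 CPM in WT and 0.542, 3.13 and 2.74 CPM in Fgg γ390–396A mice, the lowest value coming from replicate 1 with 12 counts. Its partners were easier to see in microglia: Naip2, Naip5 and Naip6 had group means of 23.8, 13.1 and 10.1 CPM in sham controls.

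Aim2 binds double-stranded DNA in the cytosol. Sham microglia held 111, 109.8 and 92.1 CPM. WT microglia at 1 d held 84.8, 78.8 and 72.0 CPM, all below sham, and Fgg γ390–396A microglia at 1 d held 106, 92.0 and 92.3 CPM, of which the lowest was just below the sham range. All 6 libraries at 7 d were above every sham library, at 121, 149 and 132 CPM in WT and 146, 131 and 147 CPM in Fgg γ390–396A microglia. All 6 myeloid libraries were below every microglia library, at 64.1, 42.2 and 55.1 CPM in WT and 42.4, 41.1 and 52.0 CPM in Fgg γ390–396A mice. By group means the order ran from microglia at 7 d (Fgg γ390–396A, then WT, overlapping) to sham and Fgg γ390–396A microglia at 1 d (overlapping), WT microglia at 1 d, and myeloid cells of WT and then Fgg γ390–396A mice (overlapping), with no overlap between those 4 steps.

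Nlrp1b is activated when proteases or loss of dipeptidyl peptidase control break down its own front end. It was at 8.96, 8.05 and 5.28 CPM in sham, 7.86, 2.42 and 2.03 CPM in WT and 9.26, 4.13 and 6.75 CPM in Fgg γ390–396A microglia at 1 d. Replicate 1 of WT microglia at 1 d stood well above the other 2. At 7 d the values were 6.02, 8.70 and 7.07 CPM in WT and 9.81, 10.1 and 11.4 CPM in Fgg γ390–396A microglia, the latter above every other library of the series. Myeloid cells had 3.10, 1.11 and 1.98 CPM in WT and 1.08, 1.36 and 4.56 CPM in Fgg γ390–396A mice. Nlrp1b shares sequence with its neighbours Nlrp1a and the pseudogene Nlrp1c-ps (6.07% of its 31-base words are found in another gene), so its share of their reads is uncertain. The sum of the 3 followed the same course, with 19.5 ± 6.07 CPM (SD, n = 3) in sham, 10.7 ± 6.55 and 16.6 ± 4.66 CPM in WT and Fgg γ390–396A microglia at 1 d, 19.5 ± 3.89 and 24.3 ± 1.42 CPM at 7 d, and 6.31 ± 1.93 and 7.21 ± 2.29 CPM in myeloid cells. Nlrp1b made up 32.4% to 43.0% of that sum.

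Pycard links many sensors to caspase-1. It was at 72.3, 59.0 and 47.4 CPM in sham controls, 94.2, 118 and 95.3 CPM in WT and 82.6, 104 and 122 CPM in Fgg γ390–396A microglia at 1 d, so all 6 libraries at 1 d lay above all 3 of sham. At 7 d it overlapped sham again, with 76.1, 45.3 and 58.7 CPM in WT and 79.1, 60.0 and 57.8 CPM in Fgg γ390–396A microglia. Myeloid cells spread widely, with 72.7, 73.5 and 49.1 CPM in WT and 40.8, 95.5 and 60.4 CPM in Fgg γ390–396A mice. Of its 31-base words, 12.7% occur in another gene, mostly the overlapping model Gm45205, so some of its reads may be credited there.

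Casp1, the protease of the canonical pathway, varied little in microglia, where the 15 libraries lay between 12 and 18.8 CPM. Myeloid cells held 24.5, 31.3 and 11.5 CPM in WT and 22.6, 19.5 and 20.4 CPM in Fgg γ390–396A mice, and WT replicate 3 was lower than any microglia library. Casp4, the mouse caspase-11 that binds bacterial lipopolysaccharide in the cytosol, was at 19.3, 26.7 and 20.6 CPM in sham and 23.2, 18.1 and 21.0 CPM in WT microglia at 1 d. It was at 30.1, 19.8 and 30.1 CPM in Fgg γ390–396A microglia at 1 d, 44.2, 25.9 and 32.6 and 38.3, 30.6 and 38.2 CPM in WT and Fgg γ390–396A microglia at 7 d, and 49.8, 27.0 and 38.4 and 27.6, 29.9 and 50.5 CPM in the myeloid cells of the 2 genotypes. Only WT microglia at 1 d were free of overlap with both myeloid groups and both groups at 7 d. Gsdmd, the pore-former cut by both caspases, had its lowest group mean in WT microglia at 1 d, with 15.7, 12.4 and 15.0 CPM in the libraries, against 28.3, 20.4 and 20.6 CPM in sham and 28.2, 22.6 and 22.1 CPM in WT myeloid cells. Its other groups ranged from 13.5 to 29.3 CPM and overlapped one another.

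To examine whether injury changed these transcripts in microglia, each injured group was compared with sham controls. A call required a log2 fold change beyond 1 in either direction together with an adjusted p under 0.05 (quasi-likelihood test of edgeR, p-values adjusted by Benjamini and Hochberg over all genes). By that measure 0 of the 8 members were called in WT microglia at 1 d, where 12.3% of all genes were, and 0 of 8 in Fgg γ390–396A microglia at 1 d, where 6.64% were. At 7 d, 0 of 8 were called in WT microglia (background 2.02%) and 0 of 8 in Fgg γ390–396A microglia (background 0.663%). The members with an unadjusted p under 0.05 numbered 3, 1, 2 and 2 in these comparisons, and DESeq2's Wald test called 0 in each. The median log2 fold change over the 8 members was -0.25 and -0.05 at 1 d and -0.01 and 0.37 at 7 d, beside medians over all genes of 0.

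Pycard came closest at 1 d, with a log2 fold change of 0.78 (95% interval 0.22 to 1.35, adjusted p = 0.0545) in WT and 0.79 (0.22 to 1.35, adjusted p = 0.0780) in Fgg γ390–396A microglia, mean ratios of 1.72 and 1.73. Gsdmd had -0.69 (adjusted p = 0.0546) in WT and -0.39 (adjusted p = 0.366) in Fgg γ390–396A microglia. For Aim2 the log2 fold changes at 1 d were -0.41 (adjusted p = 0.0923) and -0.11 (adjusted p = 0.796). Pycard, Gsdmd and Aim2 were the 3 members whose WT libraries at 1 d did not overlap sham, a state in which 33.8% of all genes were. In Fgg γ390–396A microglia at 1 d Pycard alone was free of overlap with sham, against 29% of all genes. For Nlrp3 and Casp1 in WT microglia at 1 d the intervals were -0.45 to 0.84 and -0.24 to 0.79, neither of which reaches a log2 fold change of 1. Nlrp1b had -0.85 (adjusted p = 0.309) in WT microglia at 1 d, but without replicate 1 the log2 fold change was -1.73 (adjusted p = 0.0338) and the gene was called. Nlrc4 could not be resolved, with intervals of -3.12 to 1.53 in WT and -3.36 to 1.24 in Fgg γ390–396A microglia.

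At 7 d the members nearest to a change were Aim2 and Casp4. Aim2 had log2 fold changes over sham of 0.36 (adjusted p = 0.381) in WT and 0.44 (adjusted p = 0.387) in Fgg γ390–396A microglia, and Casp4 had 0.63 (adjusted p = 0.336) and 0.69 (adjusted p = 0.460). Values of Fgg γ390–396A microglia did not overlap those of sham for 5 of the 8 members, Aim2, Casp1, Casp4 and Nlrp1b being higher and Nlrp3 lower, against 15.6% of all genes, while in WT microglia Aim2 alone did not overlap, against 20.1%. None of these passed the test.

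Cell type markers in the microglia libraries moved with these comparisons. Of 8 microglial markers, 6 were called lower in WT and 4 in Fgg γ390–396A microglia at 1 d than in sham, and their sums were 11193, 10987 and 12097 CPM in sham, 4619, 4043 and 2755 CPM in WT and 6822, 5282 and 5289.8 CPM in Fgg γ390–396A microglia. Monocyte markers summed to 7.52, 8.39 and 49.2, 144, 149 and 84.5 and 100.2, 33.3 and 38.1 CPM in the same groups, with 1 of 8 called higher in each genotype. Neutrophil markers summed to 160.0, 249 and 815, 842, 173 and 565 and 436, 132 and 105 CPM, with 1 of 10 called, lower in WT. Their part in the member values was not tested.

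**Figure D2:**
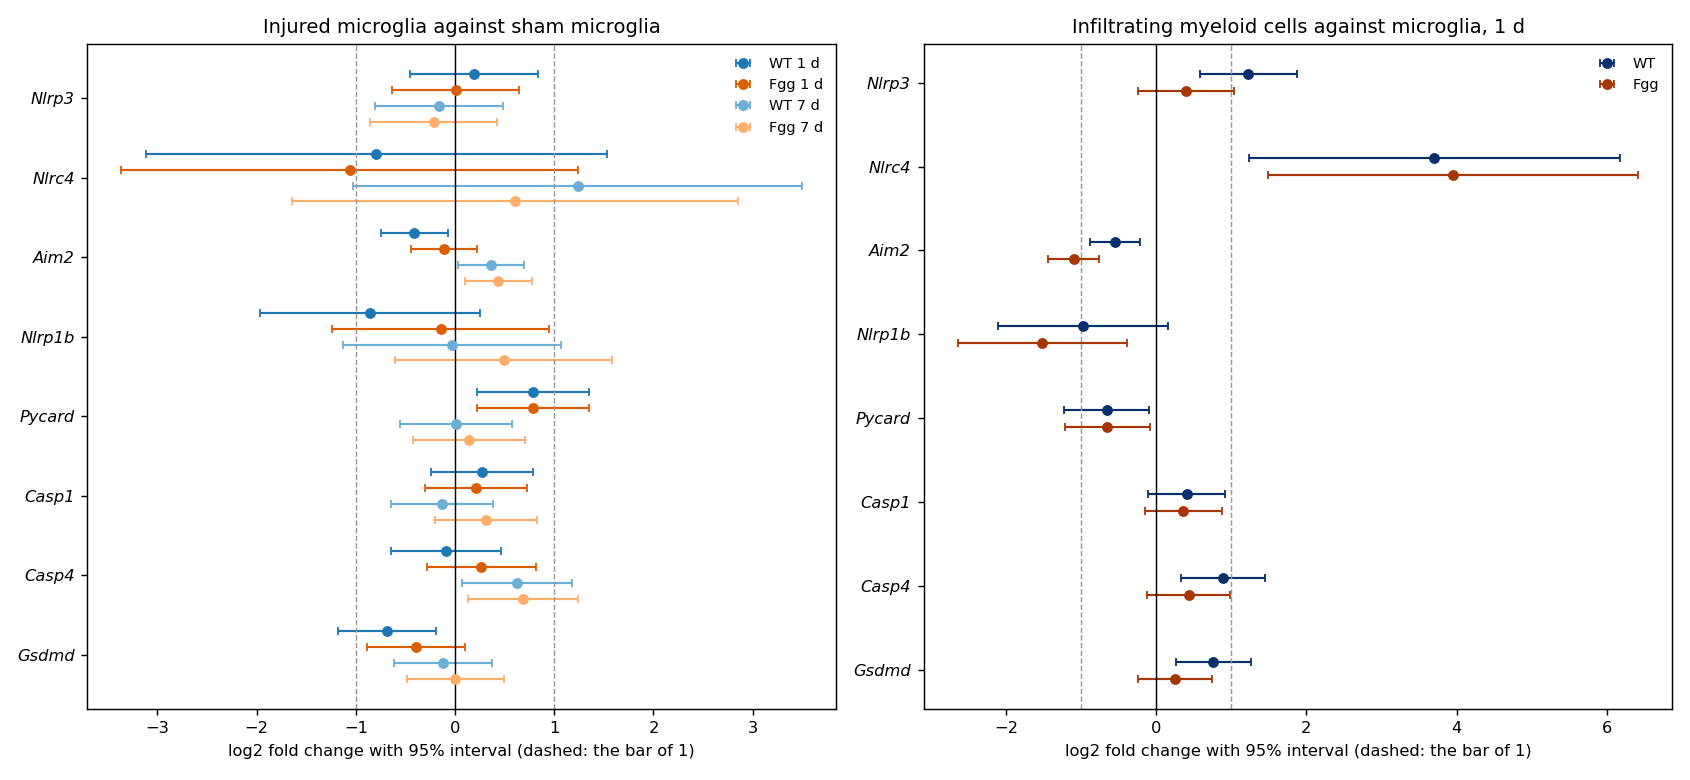
Log2 fold change of each gene (horizontal axis) with its 95% interval, on the left for the 4 injured microglia groups over sham and on the right for myeloid cells over microglia at 1 d in each genotype; dashed lines mark a log2 fold change of 1 in either direction. No gene was called against sham, while Nlrp3 (WT), Nlrc4 (both genotypes) and Aim2 (Fgg γ390–396A) were called between cell types.

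Between 1 d and 7 d, Aim2 was the member with the largest difference relative to its error. It was higher at 7 d in WT microglia by a log2 fold change of 0.77 (SE 0.16, adjusted p = 0.00326), a mean ratio of 1.70, with no overlap between the libraries. In Fgg γ390–396A microglia the log2 fold change was 0.55 (SE 0.16, adjusted p = 0.0503), again without overlap. The WT difference was under the bar on the fold change, so 0 of 8 members were called in WT (background 7.06%) and 0 of 8 in Fgg γ390–396A microglia (background 3.54%). The counts at an unadjusted p under 0.05 were 4 and 2, and those of DESeq2's Wald test were 0 and 0.

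Pycard had the opposite sign, with -0.77 (adjusted p = 0.0803) in WT and -0.65 (adjusted p = 0.218) in Fgg γ390–396A microglia. Without replicate 1 of WT microglia at 7 d its log2 fold change was -1.04 (adjusted p = 0.0371), which was a call. Casp4 had 0.72 (adjusted p = 0.0982) in WT and 0.42 (adjusted p = 0.448) in Fgg γ390–396A microglia. Nlrp1b had 0.82 (adjusted p = 0.380) in WT, and 1.70 (adjusted p = 0.0492) without replicate 1 at 1 d. Values did not overlap between days for 5 members in each genotype, against 29.4% of all genes in WT and 27.3% in Fgg γ390–396A microglia: Aim2, Pycard and Casp4 in both, Nlrc4 and Casp1 in WT, and Nlrp3 and Nlrp1b in Fgg γ390–396A microglia. Whether the change over time differed between the genotypes was tested as an interaction, which called 0 of 8 members (background 0%, 0 by DESeq2's Wald test and 0 at an unadjusted p under 0.05). For Aim2 it was -0.22 (95% interval -0.69 to 0.25, adjusted p = 1). Over the same interval 5 of 8 microglial markers were called higher in WT and 0 of 8 in Fgg γ390–396A microglia, with sums at 7 d of 7981, 7094 and 7519 and 9302, 8256 and 8078 CPM. Their part in the Aim2 difference was not tested.

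Members were called only between cell types at 1 d. Nlrp3 and Nlrc4 were higher in infiltrating myeloid cells than in microglia of WT mice. Among Fgg γ390–396A mice Nlrc4 was higher and Aim2 lower. In each genotype 2 of the 8 members were called, against 11.9% of all genes in WT (5.61% higher, 6.31% lower) and 16.7% in Fgg γ390–396A mice (6.96% higher, 9.7% lower). With only 8 members, a count of 2 is not far from those shares. The WT and Fgg γ390–396A comparisons used different libraries throughout. DESeq2's Wald test also called 2 members in each. In WT mice they were the same 2. In Fgg γ390–396A mice it called Nlrc4 and Nlrp1b but not Aim2, whose log2 fold change of -0.98 was under the bar. The median log2 fold change over the 8 members was 0.58 in WT and 0.30 in Fgg γ390–396A mice, beside 0 and -0.13 over all genes.

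For Nlrp3 the log2 fold change of myeloid cells over microglia was 1.23 (SE 0.31, adjusted p = 0.00907) in WT mice, a mean ratio of 2.34, and all 3 myeloid libraries were above all 3 microglia libraries. Without WT myeloid replicate 3 it was 1.04 (adjusted p = 0.0514) and no longer called. In Fgg γ390–396A mice the log2 fold change was 0.40 (95% interval -0.24 to 1.04, adjusted p = 0.375), a mean ratio of 1.31. The difference between the genotypes in this contrast was -0.83 (95% interval -1.73 to 0.08, adjusted p = 0.626) and was not called.

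Nlrc4 was higher in myeloid cells by 3.70 (95% interval 1.24 to 6.17, adjusted p = 0.0376) on the log2 scale in WT and by 3.95 (1.48 to 6.42, adjusted p = 0.0207) in Fgg γ390–396A mice, mean ratios of 13.3 and 16.1 with no overlap in either. These calls rest on few counts in microglia. In WT mice the call was lost without microglia replicate 2 (adjusted p = 0.120) or 3 (0.0987) and without myeloid replicate 1 (0.0662) or 3 (0.0865), with log2 fold changes between 3.18 and 3.70. In Fgg γ390–396A mice it was lost without microglia replicate 2 (adjusted p = 0.0598) or 3 (0.0574) and without myeloid replicate 2 (0.0513), with log2 fold changes between 3.38 and 4.07.

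Aim2 was lower in myeloid cells by a log2 fold change of -1.10 (SE 0.16, adjusted p = 6.17e-05) in Fgg γ390–396A mice and of -0.55 (SE 0.16, adjusted p = 0.0244) in WT mice, where it missed the bar on the fold change. The mean ratios were 0.467 and 0.685, and the libraries did not overlap in either genotype. In the Fgg γ390–396A comparison the median log2 fold change of all genes was -0.13 under TMM factors, and with DESeq2's size factors Aim2 stood at -0.98, just under the bar. Without Fgg γ390–396A myeloid replicate 1 it was -0.95 (adjusted p = 0.00123). The interaction between cell type and genotype was -0.55 (unadjusted p = 0.0242, adjusted p = 0.542), and this test called 0 of the 8 members (background 0.0462%, 0 by DESeq2's Wald test, 1 at an unadjusted p under 0.05).

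Of the other members, Casp4 and Gsdmd were higher in myeloid cells of WT mice with log2 fold changes of 0.89 (adjusted p = 0.0269) and 0.76 (adjusted p = 0.0345), both under the bar. Without WT myeloid replicate 2 Casp4 stood at 1.13 (adjusted p = 0.0105). In Fgg γ390–396A mice they had 0.43 (adjusted p = 0.256) and 0.25 (adjusted p = 0.488). Pycard had -0.66 (adjusted p = 0.117) in WT and -0.65 (adjusted p = 0.0994) in Fgg γ390–396A mice, and -1.02 (adjusted p = 0.0115) without Fgg γ390–396A myeloid replicate 2. Nlrp1b had -0.97 (adjusted p = 0.255) and -1.51 (adjusted p = 0.0513). In Fgg γ390–396A mice it was called with DESeq2's Wald test (-1.42, adjusted p = 0.0344), without microglia replicate 2 (-1.77, adjusted p = 0.0403) and without myeloid replicate 3 (-2.45, adjusted p = 0.00400). Casp1 had log2 fold changes of 0.41 (adjusted p = 0.296) in WT and 0.36 (adjusted p = 0.313) in Fgg γ390–396A mice. Values of the 2 cell types did not overlap for 6 members in WT and 3 in Fgg γ390–396A mice, against 29.2% and 32.1% of all genes.

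The myeloid libraries differed in their summed neutrophil markers, and Nlrp3 was lowest where that sum was lowest. The 10 neutrophil markers, none of which was at 0 in every library of a group, summed to 8449, 3566 and 13216 CPM in WT and 2774, 5815 and 5213 CPM in Fgg γ390–396A myeloid cells. WT replicate 2, with the smallest sum of its group, also had the lowest Nlrp3 at 14.4 CPM and the lowest Nlrc4 at 1.58 CPM, and Fgg γ390–396A replicate 1, with the smallest sum of all, had the lowest Nlrp3 at 6.87 CPM and the lowest Nlrc4 at 0.542 CPM. Of the other Fgg γ390–396A libraries, however, replicate 3 had the smaller sum and the higher Nlrp3, 19.9 against 11.3 CPM. Casp1 did not follow the sums, since WT replicate 3, with the largest sum, had the lowest Casp1 at 11.5 CPM. Monocyte markers were nearer to even, at 2191, 1969 and 2034 CPM in WT and 2255, 1838 and 1911 CPM in Fgg γ390–396A mice. The part of neutrophil RNA in the Nlrp3 and Nlrc4 values was not tested.

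**Figure D3:**
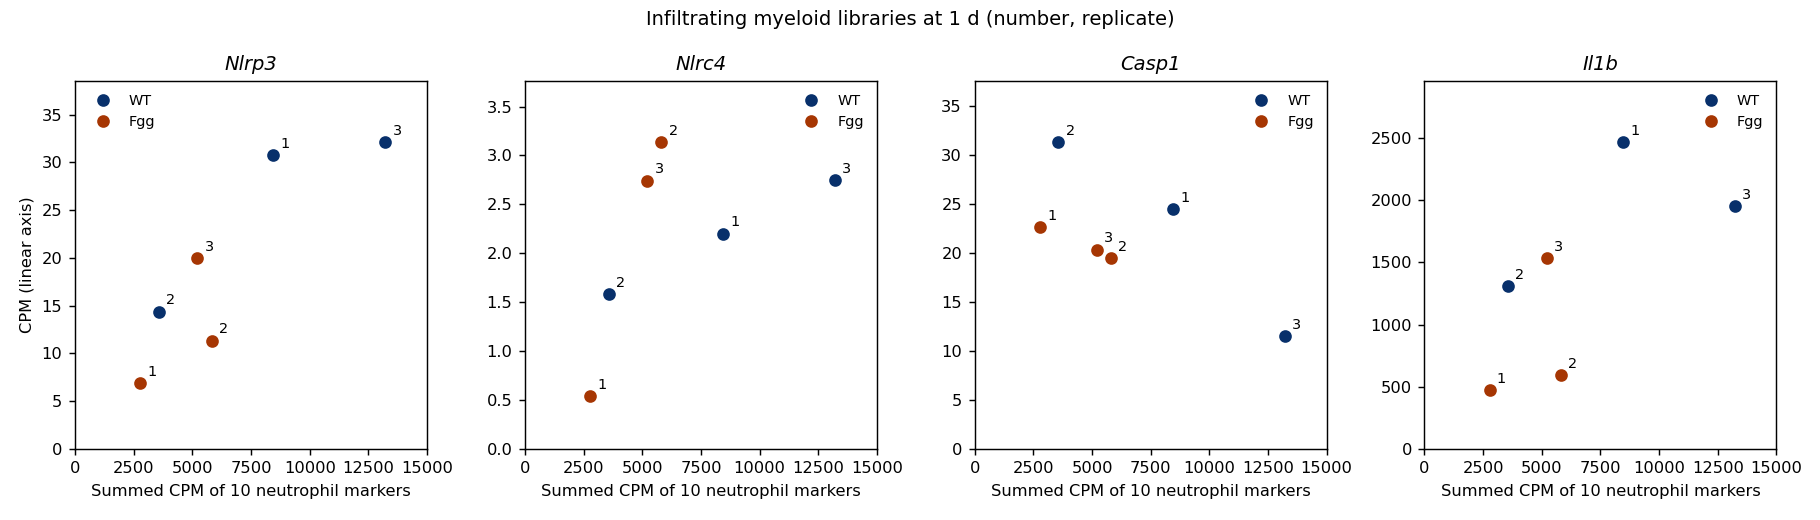
Level in CPM (vertical axis, 1 panel per gene) of Nlrp3, Nlrc4, Casp1 and Il1b in the 6 myeloid libraries against the summed CPM of 10 neutrophil markers (horizontal axis), with points coloured by genotype. The WT library with a sum of 3566 CPM has the lowest Nlrp3 of its group, and the library with the largest sum, 13216 CPM, has the lowest Casp1.

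To examine whether the fibrinogen mutation changed these genes, Fgg γ390–396A and WT libraries were compared within each cell type and day, with calls at an adjusted p under 0.1. In microglia at 1 d, 0 of the 8 members were called (background 0.0546%), as at 7 d (background 0.0378%) and in myeloid cells (background 0.453%). Members with an unadjusted p under 0.05 numbered 0, 0 and 1, and DESeq2's Wald test called 0 in each. With so few genes called in all, a count of 0 among 8 is near the background. The median log2 fold change over the 8 members was 0.15, 0.10 and -0.10, beside 0 over all genes.

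Nlrp3 in myeloid cells had the largest difference relative to its error, with 6.87, 11.3 and 19.9 CPM in Fgg γ390–396A against 30.8, 14.4 and 32.1 CPM in WT libraries. The log2 fold change of Nlrp3 was -1.02 (95% interval -1.66 to -0.37, unadjusted p = 0.00368, adjusted p = 0.206), a mean ratio of 0.493, and the 2 groups overlapped because Fgg γ390–396A replicate 3 was above WT replicate 2. Without that Fgg γ390–396A library the log2 fold change was -1.50 (adjusted p = 0.0186) and the gene was called. Of the 10 neutrophil markers, whose sums in these libraries are given above, 0 were called by edgeR's test between the genotypes (0 at an unadjusted p under 0.05), and their part in this difference was not tested. In microglia Nlrp3 had intervals of -0.83 to 0.45 at 1 d and -0.70 to 0.59 at 7 d.

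Aim2 had log2 fold changes between genotypes of 0.30 (95% interval -0.03 to 0.64, adjusted p = 0.890) in microglia at 1 d and -0.25 (-0.59 to 0.08, adjusted p = 0.531) in myeloid cells. At 1 d its 3 Fgg γ390–396A libraries were above its 3 WT libraries, which held for 1 of the 8 members against 8.72% of all genes without overlap. At 7 d Casp1 (17.4, 17.3 and 17.4 against 13.2, 12 and 13.2 CPM in WT) and Nlrp1b were the 2 members without overlap, against 11.1% of all genes, with log2 fold changes of 0.44 (-0.07 to 0.96) and 0.52 (-0.57 to 1.62) and adjusted p of 1 for both. In myeloid cells 0 of the 8 were free of overlap, against 8.02% of all genes. Pycard had intervals of -0.56 to 0.57, -0.43 to 0.69 and -0.55 to 0.58 in the 3 genotype comparisons, none of which reaches a log2 fold change of 1 in either direction. For Nlrc4 the intervals, -2.61 to 2.07, -2.86 to 1.59 and -2.18 to 2.14, each pass a log2 fold change of 2 in at least 1 direction.

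**Figure D4:**
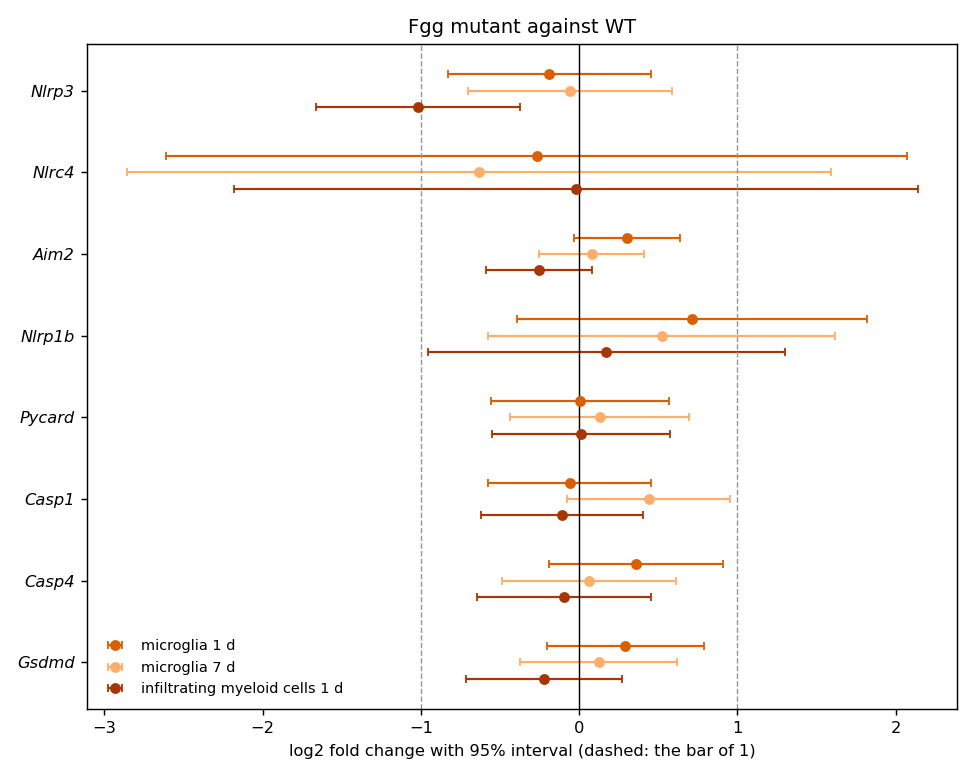
Log2 fold change of Fgg γ390–396A over WT (horizontal axis) with its 95% interval for each of the 8 genes in microglia at 1 d, microglia at 7 d and myeloid cells; dashed lines mark a log2 fold change of 1 in either direction. No gene was called, and Nlrp3 in myeloid cells, at -1.02, has an interval that does not reach 0.

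Other genes of the pathway gave a wider view. From 7 lists, 57 genes besides the 8 members were tested. Against sham, 12 were called in WT microglia at 1 d (8 higher, 4 lower) and 7 in Fgg γ390–396A microglia at 1 d (6 higher, 1 lower), then 5 (5 higher) and 3 (3 higher) at 7 d, which is 21.1%, 12.3%, 8.77% and 5.26% of the 57 against 12.3%, 6.64%, 2.02% and 0.663% of all genes. Of these, 5, 4, 3 and 1 were called whichever library was left out, and most genes named here come from among those. Between 7 d and 1 d, 14 were called in WT (11 higher, 3 lower) and 3 in Fgg γ390–396A microglia (2 higher, 1 lower), 24.6% and 5.26% of the 57 against 7.06% and 3.54% of all genes, and 6 and 1 of them were called whichever library was left out. Between myeloid cells and microglia, 18 were called in WT (15 higher, 3 lower) and 21 in Fgg γ390–396A mice (18 higher, 3 lower), with medians over the 57 of 0.60 and 0.80 on the log2 scale beside 0 and -0.13 over all genes. These are 31.6% and 36.8% of the 57 against 11.9% and 16.7% of all genes, and 14 and 17 of them were called whichever library was left out. The genotype comparisons and both interactions called 0 of 57. In those 5 tests 7, 2, 9, 2 and 3 genes had an unadjusted p under 0.05, and DESeq2's Wald test called Il1rn in microglia at 1 d (log2 fold change -2.06, adjusted p = 0.00740, with 0.448 from edgeR), Il1a (-1.75, adjusted p = 0.0350) and Irgm1 (1.05, adjusted p = 0.0107) in myeloid cells, and no others.

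The cytokines that caspase-1 matures behaved unlike each other. Il1b was at 6.60, 6.80 and 18.2 CPM in sham, 144, 33.2 and 66.5 CPM in WT and 43.5, 22.7 and 54.7 CPM in Fgg γ390–396A microglia at 1 d, 35.8, 15.4 and 16.1 and 14.7, 25.3 and 17.9 CPM at 7 d, and 2467, 1312 and 1951 and 471, 591 and 1538 CPM in myeloid cells. It rose over sham in WT microglia at 1 d by a log2 fold change of 2.94 (adjusted p = 0.00107) and in Fgg γ390–396A microglia by 1.93 (adjusted p = 0.0303), a call lost without Fgg γ390–396A replicate 1 (0.0589) or 3 (0.129) or sham replicate 1 (0.138) or 2 (0.139). In myeloid cells it was higher than in microglia by 4.56 (adjusted p = 3.25e-05) in WT and 4.43 (adjusted p = 3.28e-05) in Fgg γ390–396A mice.

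Il18, by contrast, was called by neither edgeR nor DESeq2's Wald test in any of the 13 tests (2 had an unadjusted p under 0.05), with 13.8, 9 and 8.67 CPM in sham, 5.73, 8.97 and 2.54 and 7.40, 4.91 and 10.1 CPM in WT and Fgg γ390–396A microglia at 1 d, 9.22, 5.20 and 8.12 and 10.2, 7.11 and 8.32 CPM at 7 d, and 5.56, 3.11 and 3.61 and 5.01, 12.4 and 9.18 CPM in myeloid cells. Its lowest unadjusted p was 0.0148, between the genotypes in myeloid cells (log2 fold change 1.11, adjusted p = 0.319). Of 11 genes for natural inhibitors and membrane repair, 2 were called higher than sham at 1 d in each genotype, and 3 in WT and 1 in Fgg γ390–396A microglia at 7 d. Il1rn, which encodes the IL-1 receptor antagonist, went from 0.478, 2.28 and 4.45 CPM in sham to 151, 152 and 282 CPM in WT and 33.0, 49.9 and 61.1 CPM in Fgg γ390–396A microglia at 1 d, log2 fold changes of 6.33 (adjusted p = 8.51e-07) and 4.30 (adjusted p = 4.29e-05). It fell again by 7 d, with log2 fold changes of -4.23 and -3.30 against 1 d (adjusted p = 5.65e-05 and 7.55e-04). Il18bp, the secreted trap for IL-18, was higher at 7 d than in sham in WT microglia (2.55, adjusted p = 5.98e-04) and in Fgg γ390–396A microglia (2.03, adjusted p = 0.00925, or 0.0522 without sham replicate 1).

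Among 11 other sensors, Zbp1, a sensor of Z-form nucleic acids, was called higher in all 4 injury comparisons, with log2 fold changes over sham of 2.24 (adjusted p = 0.00953) and 3.43 (6.29e-04) at 1 d and 4.22 (5.22e-04) and 3.99 (0.00209) at 7 d in WT and Fgg γ390–396A microglia. These 4 comparisons share the sham libraries, in which Zbp1 was at 0.797, 1.18 and 3.22 CPM, and the WT call at 1 d was lost without sham replicate 1 (adjusted p = 0.0555) or 2 (0.0510). Ifi204, a DNA-binding relative of Aim2, was higher at 7 d in WT microglia by 3.52 (adjusted p = 0.00100). Naip6 was higher at 7 d than at 1 d in WT microglia (1.38, adjusted p = 0.00438). It was also called higher in Fgg γ390–396A microglia, a call lost on leaving out any 1 of 5 libraries. Mefv, which encodes pyrin, was higher in myeloid cells than microglia by 3.96 (adjusted p = 0.00253) in WT and 6.29 (adjusted p = 9.40e-05) in Fgg γ390–396A mice. Its call over sham in WT microglia at 1 d (2.78, adjusted p = 0.0424) came from replicate 1, since the values were 3.70, 0.289 and 0.351 CPM, and without it the log2 fold change was 0.62 (adjusted p = 0.701).

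Of the upstream regulators of Nlrp3, Txnip fell in microglia of both genotypes at 1 d. P2rx7 fell in WT microglia, and in Fgg γ390–396A microglia it missed only the bar on the fold change. Txnip, whose product binds Nlrp3 when released from thioredoxin, was at 189, 159 and 231 CPM in sham, 71.6, 60.2 and 54.5 CPM in WT and 108, 53.5 and 62.1 CPM in Fgg γ390–396A microglia, with log2 fold changes of -1.63 (adjusted p = 7.00e-04) and -1.37 (adjusted p = 0.00486). P2rx7, the ATP-gated channel that lets potassium out, was at 105, 99.2 and 121 CPM in sham and 54.3, 39.2 and 44.7 CPM in WT microglia, a log2 fold change of -1.23 (adjusted p = 0.00199), and at 73.4, 48.9 and 48.5 CPM in Fgg γ390–396A microglia, with -0.93 (adjusted p = 0.0250), or -1.05 (adjusted p = 0.00101) and a call with DESeq2's Wald test. In WT microglia P2rx7 rose again by 7 d (1.29, adjusted p = 0.00243), and in Fgg γ390–396A microglia the log2 fold change was 0.92 (adjusted p = 0.0414), under the bar with edgeR and called with DESeq2's Wald test (1.01). Of the 12 regulators, 4 were called in WT microglia at 1 d (1 higher, 3 lower) and 1 in Fgg γ390–396A microglia (lower), beside 12.3% and 6.64% of all genes. Of the WT calls, Sugt1 and Irf1 were each lost on leaving out any 1 of 3 libraries, and Sugt1 also with filterByExpr and with DESeq2's size factors or Wald test. In Fgg γ390–396A microglia at 1 d, DESeq2's Wald test also called P2rx7 lower than sham. From the list of inhibitors it called Tnfaip3 there, also lower (-1.06, adjusted p = 0.00756). In myeloid cells P2rx7 was lower than in microglia (-1.22 in WT and -1.40 in Fgg γ390–396A mice, adjusted p = 0.00260 and 6.68e-04), as was the potassium channel Kcnk6 (-1.53 and -2.07, adjusted p = 2.26e-04 and 8.01e-06), while Txnip was higher (1.69 and 1.38, adjusted p = 6.16e-04 and 0.00261).

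Downstream of the pore, Ninj1, whose product ruptures the membrane of dying cells, was at 24.5, 34.1 and 42.0 CPM in WT and 18.2, 27.4 and 21.9 CPM in Fgg γ390–396A microglia at 1 d, and at 119.8, 134 and 207 and 124, 157 and 171 CPM in myeloid cells of the same genotypes. The log2 fold changes were 2.19 (adjusted p = 9.88e-06) and 2.74 (adjusted p = 8.54e-07), larger than that of any of the 8 members except Nlrc4. Chmp2a and Chmp4b, subunits of the ESCRT machinery that repairs gasdermin pores, were also higher in myeloid cells, by 1.61 (adjusted p = 3.10e-06) and 1.37 (adjusted p = 3.83e-04) in WT and 1.74 (adjusted p = 1.13e-06) and 1.64 (adjusted p = 5.10e-05) in Fgg γ390–396A mice. Il1r2, the decoy receptor for IL-1, was higher by 5.61 (adjusted p = 3.46e-04) and 6.28 (adjusted p = 1.27e-04). Of the necroptosis genes, a parallel form of lytic death, Ripk3 rose in microglia at 1 d over sham by 2.74 (adjusted p = 1.89e-04) in WT and 2.34 (adjusted p = 0.00128) in Fgg γ390–396A mice. Among the other caspases, Casp8, which can also cut gasdermin D, had a log2 fold change of -0.51 over sham in WT microglia at 1 d (adjusted p = 0.0255), under the bar. Of 6 GTPases listed around cytosolic lipopolysaccharide, 3 were called at 7 d over 1 d in WT microglia, all higher, against 7.06% of all genes. They were Gbp2, Gbp5 and Irgm1, and only Irgm1 (1.58, adjusted p = 6.20e-04) was called whichever library was left out. Gbp5 was also called lower than sham in WT microglia at 1 d, a call lost on leaving out any 1 of 4 libraries.

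**Figure D5:**
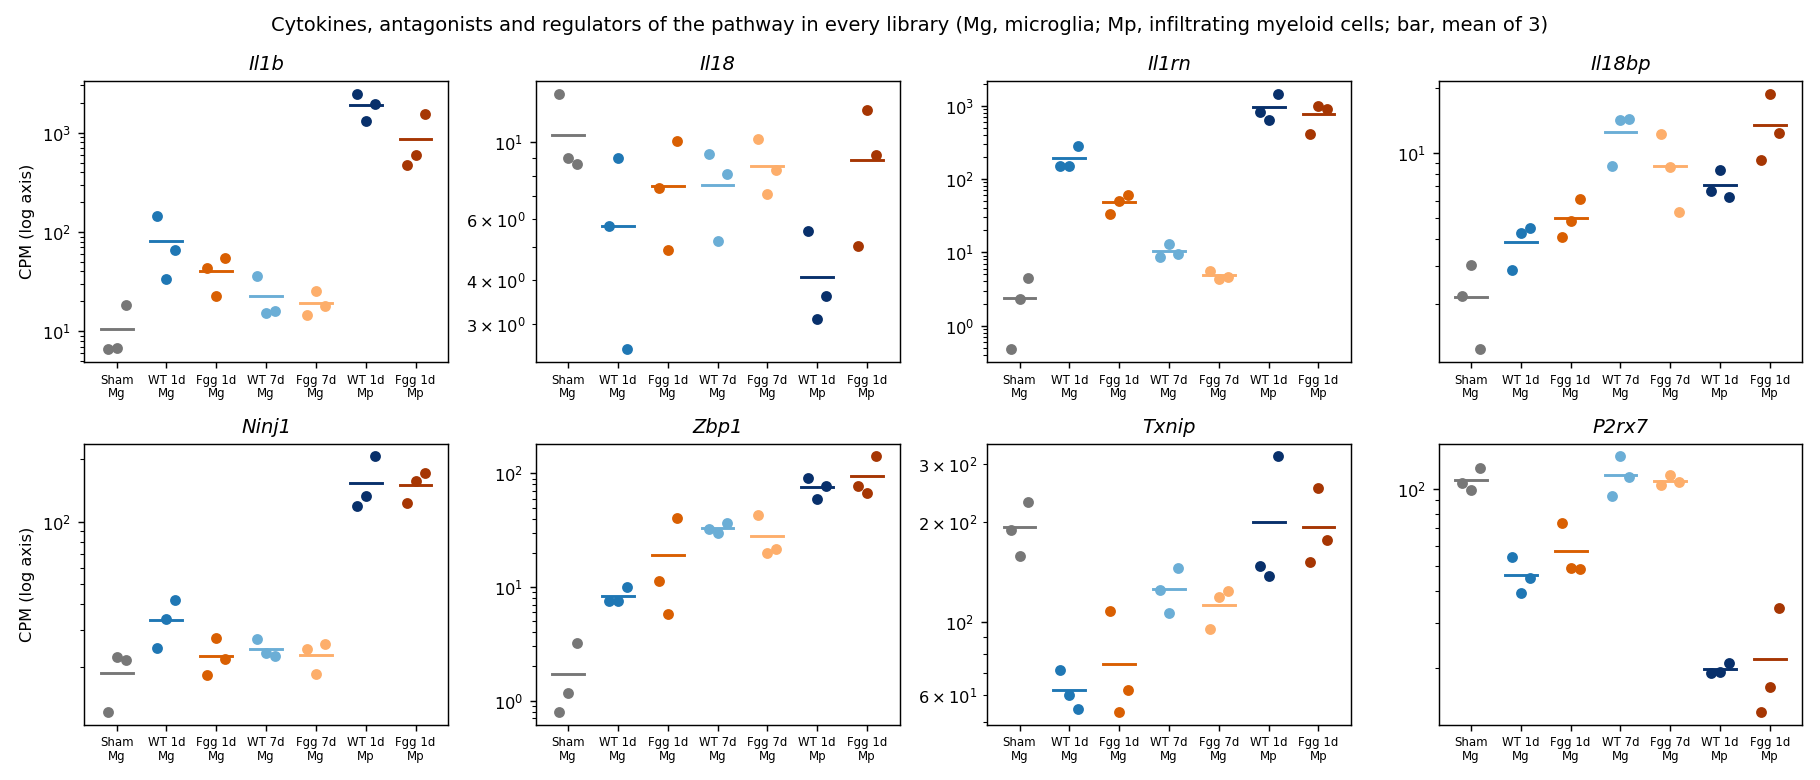
Level in CPM (vertical axis, log scale) of 8 other pathway genes in the 7 groups (horizontal axis), with points for the 3 libraries of a group and a bar for their mean. Il1b, Il1rn and Ninj1 are highest in myeloid cells, Il18 shows no group apart from the others, Zbp1 is lowest in sham, and Txnip and P2rx7 dip in microglia at 1 d.

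Genes with the most similar course over the 7 groups were sought for each member with a mean of at least 1 CPM, by the root mean square difference of centred log2 group means. Luc7l2 was nearest to Aim2 (0.0618), followed by Dhx57 and Epb41l2. Tatdn2, Pdcd10 and Ddx28 were nearest to Nlrp3 (0.106 to 0.132), and Letm2, Gm15726 and Trit1 to Nlrp1b (0.118 to 0.127). For Pycard these were Cse1l, Clptm1 and Bcs1l (0.0522 to 0.0762), for Casp1 Sec24b, Glyr1 and Plpbp (0.0577 to 0.0912), for Casp4 Daxx, Sbno1 and Hscb (0.117 to 0.126) and for Gsdmd Stxbp3, Tmem219 and Birc2 (0.0635 to 0.0698). No member was among the nearest 3 of another. Nlrc4, with a mean of 0.860 CPM, was left out of this search.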

How the data were processed

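RNA was measured in 21 libraries of sorted microglia or infiltrating myeloid cells. The authors quantified reads with salmon 1.4.0 in nf-core/rnaseq 3.0 on GRCm38 and deposited estimated counts per gene (expected counts), scaled so that gene length is divided out and not normalized between libraries. The submitters' processing notes also list DESeq2 1.36.0 and R 4.2.0. The values were rounded to whole counts here (56.8% of genes had at least 1 value that was not whole), and library kits were not stated to mark strand. Of 45706 gene identifiers, 45143 matched GENCODE M21.

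Genes with at least 5 counts in all (23815) were fitted with edgeR 4.0.16 under R 4.3.3 (TMM factors of 0.735 to 1.55, glmQLFit and glmQLFTest, Benjamini-Hochberg adjustment over all genes), in 1 fit of 7 group means. Calls needed a log2 fold change beyond 1 in either direction and an adjusted p under 0.05, or under 0.1 between genotypes, and interactions needed an adjusted p under 0.1. Standard errors come from the fold change and its F statistic, and the common biological coefficient of variation was 0.643. The labels give the replicates only numbers, and the authors' methods state that each was a pool of 2 brains. A count of 3, taken as the floor, is 0.0448 to 0.158 CPM. The floors are approximate, since these counts are not reads, and they cover counting error only.

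The members and gene lists were chosen with earlier results of these data known. All 8 members are named, Il1b and Il18 in every group, and up to 4 genes with the smallest adjusted p of each list in a comparison. Other genes are named because of their values: the Naip genes as partners of Nlrc4, Casp8, P2rx7 in Fgg γ390–396A mice, Sugt1, Irf1 and Tnfaip3, and the genes DESeq2 called between genotypes. Upstream sequences are RefSeq's, and motifs were searched on both strands. The result for 1 other motif searched is not reported here. In simulated data with 200 genes changed by a log2 fold change of 2 among 23815, the comparison of the genotypes in microglia at 1 d recovered 65% and called 4 others. Alternatives were DESeq2 1.42.0's Wald test and size factors, filterByExpr, no filter, a replicate block, fits of the compared groups only, no bar on the fold change, and leaving out each library. Protein sequences were not used here.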

Additional observations from a re-analysis of the deposited data

Results flagged for a closer look

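Aim2, the cytosolic DNA sensor, lay on opposite sides of sham at the 2 days in WT microglia. Its log2 fold change over sham was -0.41 at 1 d and 0.36 at 7 d, with all 3 libraries at 1 d below and all 3 at 7 d above the sham libraries. Neither comparison passed the test by itself, and both use the same sham libraries. Their difference, 0.77, is the comparison of 7 d with 1 d, which was tested directly without sham (edgeR's quasi-likelihood test, adjusted p = 0.00326). Over the alternatives it ranged from 0.66 to 0.86, with adjusted p up to 0.0381.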

How the results depend on the processing

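Of 1214 refits of 88 log2 fold changes of members, 1155 kept their direction and their side of the threshold, 16 lost a call, 14 gained one and 29 changed sign, the last all on leaving out a library. The other 16 of the 104 member fold changes were under 0.1 in size and are not counted as results, and 15 of them changed sign in some alternative. Of 1079 refits of 83 called fold changes of other pathway genes, 954 kept the call and 125 lost it. The number of members called between myeloid cells and microglia of Fgg γ390–396A mice, 2, became 1 with DESeq2's size factors, 1 with filterByExpr, 0 when the fit held only the libraries compared, and 1 to 3 on leaving out libraries. In WT mice the 2 became 1 when it held only those, 5 without the bar on the fold change, and 0 to 3 on leaving out libraries. For WT microglia at 7 d over 1 d the 0 became 1 without the bar and 0 to 1 on leaving out libraries, and it became 0 to 1 likewise for WT microglia at 1 d over sham and for the genotypes in myeloid cells.

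Replicate numbers are not known to pair the samples. Most same-numbered pairs joined different genotypes or days, so their mean cannot show whether libraries of 1 genotype and day are paired. Over 63 pairs of same-numbered libraries the mean correlation of deviations was 0.0172 (-0.0779 to 0.348), with 4 above 0.1. All 4 lay at 1 d, either between microglia of the genotypes (0.0889 to 0.348) or between WT microglia and WT myeloid cells (0.0267 to 0.151). The main fit did not use replicate numbers, and the source of these correlations was not tested. With the replicate block, 1 member instead of 2 was called between the cell types of WT mice. Nlrc4 lost its call there (3.65, adjusted p = 0.0585). Between genotypes in myeloid cells, 66 genes instead of 108 were called.

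Leaving out libraries gave log2 fold changes on both sides of 0 for these comparisons. For Nlrp3 the range was -0.083 to 0.81 for myeloid cells over microglia of Fgg γ390–396A mice. For Nlrc4 it was -1.10 to 1.23 between genotypes in microglia at 1 d, -1.87 to 0.47 for the interaction with time and -1.25 to 1.08 for that with cell type. For Nlrp1b it was -0.45 to 0.11 for Fgg γ390–396A microglia at 1 d over sham, -0.77 to 0.60 between genotypes in myeloid cells and -1.07 to 0.15 for the interaction with time. For Pycard it was -0.016 to 0.30 for Fgg γ390–396A microglia at 7 d over sham, -0.038 to 0.35 between genotypes at 7 d and -0.042 to 0.36 for the interaction with time. For Casp1 it was -0.21 to 0.015 for WT microglia at 7 d over sham and -0.42 to 0.26 between genotypes in myeloid cells. For Gsdmd it was -0.42 to 0.12 for WT microglia at 7 d over sham, -0.12 to 0.42 between genotypes at 7 d and -0.41 to 0.13 for the interaction with time. The cause was not tested.

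Counts over all genes went with DESeq2's Wald test from 13 to 104, 9 to 80 and 108 to 841 between genotypes in microglia at 1 d, at 7 d and in myeloid cells, from 0 to 33 and 11 to 259 for the interactions with time and cell type, and from 481 to 820 and 158 to 347 for WT and Fgg γ390–396A microglia at 7 d over sham. When a fit held only the libraries compared they went to 8, 19 and 7 between genotypes, 0 for the interaction with cell type, 85 for Fgg γ390–396A microglia at 7 d over sham and 2211 instead of 3967 between the cell types of Fgg γ390–396A mice. With filterByExpr 176 genes differed between genotypes in myeloid cells, and without the bar 1343 instead of 844 between the days in Fgg γ390–396A microglia. The range on leaving out libraries was 6 (without WT replicate 3) to 89 (without WT replicate 1) between genotypes in microglia at 1 d. In myeloid cells it was 65 (without WT replicate 3) to 641 (without Fgg γ390–396A replicate 3), with 314 without Fgg γ390–396A replicate 1. At 7 d over sham, 481 in WT became 283 without sham replicate 1, and 158 in Fgg γ390–396A microglia became 82 and 74 without sham replicates 1 and 2. Between the days in Fgg γ390–396A microglia, 844 became 463 and 554 without replicates 2 and 3 at 1 d, and the interaction with cell type ranged from 0 to 151. Of the genes called over sham at 1 d, 82.7% were higher in Fgg γ390–396A microglia (71.7% with DESeq2's size factors, 62.6% with its Wald test, 72.0% with only the libraries compared), and 65.7% in WT microglia (51.7% with the Wald test). That test gave 38.7% instead of 18.7% and 53.1% instead of 37.9% higher between the days in Fgg γ390–396A and WT microglia, and fits of only the libraries compared gave 67.5% instead of 41.8% and 61.4% instead of 47.1% between their cell types. Nlrc4 in microglia is limited by its counts.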
